A study of Mus musculus with 6 samples.

Results

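Immediate early genes are genes that a cell switches on at once when a signal or a stress arrives, and 10 of them were followed here in the mouse colon: Fos, Fosb, Jun, Junb, Atf3, Egr1, Nr4a1, Ier2, Dusp1 and Zfp36. They were chosen by name as rapidly induced transcription factors and feedback genes, by a rule without a threshold on their values, although earlier results of these data were known. The count tables listed 24517 genes, of which 16347 had enough reads to be tested, and all 10 members were among those tested.

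The study deleted Nsd2, which encodes a methyltransferase for lysine 36 of histone H3, from the intestinal epithelium and compared knockout with control mice on an obesogenic diet. The control group, NSD2fl/fl, carried the floxed Nsd2 gene without its deletion. In the knockout group, NSD2∆IE, the floxed gene was removed by a Cre recombinase driven by the Villin promoter, which is active in intestinal epithelial cells and leaves Nsd2 in muscle, nerve and connective tissue cells. Both groups had received the HFCD, a high-fat, high-cholesterol diet, for 16 weeks per the labels (the study's text gives another length), and both were on a C57BL/6J background per the study's methods. Total RNA of whole colon tissue was sequenced in 3 libraries per group, and nothing in the labels says whether each library came from 1 animal, so the p-values measure the spread between these libraries. Whole colon was used, so fewer cells of a type and less RNA per cell cannot be told apart.

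The transcripts of immediate early genes are made from factors already present in the cell, such as CREB, which binds the cyclic AMP response element (CRE), and SRF, which binds the CArG box, and they need no new protein. Most of these transcripts are short-lived, and several members switch the response off again: Dusp1 encodes a phosphatase of MAP kinases, and Zfp36 encodes tristetraprolin, which speeds the decay of messages with AU-rich elements. The same genes respond to growth factors, inflammation and kinases such as JNK, and they also respond to the handling of tissue after death, so they vary easily between animals. The question put to the data was whether their levels in the colon differed with Nsd2, since the study placed NSD2 upstream of JNK, a kinase that acts on the JUN protein.

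The promoters of 5 members are shown because they hold, or lack, the letters through which CREB-type factors reach these genes. Each line gives 150 bases, from 200 to 51 bases before the RefSeq start of transcription, 5′ to 3′ on the strand of the gene, from the GRCm38.p6 assembly (the labels' processing notes name mm10, the same build). Capitals mark the CRE core, TGACG, or CGTCA when it lies on the other strand, and the full CRE, TGACGTCA, in which a core on each strand overlaps. The windows lie on chr12:85473690-85473839 (+) for Fos, chr7:19310096-19310245 (-) for Fosb, chr15:101266646-101266795 (+) for Nr4a1, chr17:26508523-26508672 (-) for Dusp1 and chr4:95052273-95052422 (-) for Jun, and none of them overlaps an exon of its gene in GENCODE M21.
Fos: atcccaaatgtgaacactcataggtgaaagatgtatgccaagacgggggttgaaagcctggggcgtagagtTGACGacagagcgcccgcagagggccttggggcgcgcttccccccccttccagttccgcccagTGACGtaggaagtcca
Fosb: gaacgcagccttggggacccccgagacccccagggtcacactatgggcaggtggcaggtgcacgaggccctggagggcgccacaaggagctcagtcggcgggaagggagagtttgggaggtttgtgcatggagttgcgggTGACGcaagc
Nr4a1: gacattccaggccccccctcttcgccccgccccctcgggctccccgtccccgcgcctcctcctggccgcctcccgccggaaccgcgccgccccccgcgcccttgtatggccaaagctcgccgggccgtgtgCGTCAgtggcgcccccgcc
Dusp1: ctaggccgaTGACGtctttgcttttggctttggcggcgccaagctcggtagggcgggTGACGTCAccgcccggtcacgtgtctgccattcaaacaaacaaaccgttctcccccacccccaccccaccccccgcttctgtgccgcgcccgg
Jun: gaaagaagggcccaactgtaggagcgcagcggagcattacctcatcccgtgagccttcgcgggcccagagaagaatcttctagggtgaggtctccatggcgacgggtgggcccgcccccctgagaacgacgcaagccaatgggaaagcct

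The RefSeq table held promoters of 8 of the 10 members, all but Egr1 and Ier2. In the 250 bases before the start, 6 of these 8 (Fos, Fosb, Junb, Atf3, Dusp1 and Nr4a1) held a CRE core on either strand, against 17.8% of the 32851 promoters in the table. Nr4a1 held 4 cores, 1 of them in the stretch shown, Dusp1 3 and Fos 2. The full CRE, present in 1.55% of all promoters, was found in Dusp1 alone among these 8, at positions -143 to -136. The CArG box, present in 1.47% of all promoters, was found in Zfp36 alone of the 8, at -58 to -49. The AP-1 site TGANTCA, present in 6.75%, was found in none of them. Sites outside these 250 bases, and the promoters of Egr1 and Ier2, were not searched. The members' windows were also rich in G and C, from 58.4% in Fos to 74.4% in Nr4a1, against a median of 52.4% over all promoters. The shares of all promoters with a site were not matched for G and C content. The matches describe letters and say nothing of which factor was bound in the colon.

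The libraries held 38041832 to 38604680 counts, and mitochondrial genes took 3.07% to 4.85% of them. Nsd2 was measured at 47.8, 59.1 and 68.9 CPM (counts scaled to a common library size) in NSD2fl/fl and at 24.5, 23.1 and 27.5 CPM in NSD2∆IE. It was lower in every NSD2∆IE library, by a log2 fold change of -1.23 (SE 0.16), which did not pass the correction over all genes with edgeR (adjusted p = 0.302) and passed it with DESeq2 (adjusted p = 3.88e-07). Xist, the RNA of the inactive X chromosome, had 0 to 4 counts in NSD2fl/fl and 21217 to 24234 in NSD2∆IE, and 4 Y-linked genes summed to 5058 to 6110 counts in NSD2fl/fl and to at most 1 in NSD2∆IE. Xist and the Y-linked Uty, Kdm5d, Eif2s3y and Ddx3y were the 5 genes that edgeR called over the whole table. The study's methods describe male littermates, so the NSD2∆IE libraries go against that description, and in every comparison below the effect of genotype and that of the sex pattern cannot be told apart.

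No immediate early gene passed the test between NSD2fl/fl and NSD2∆IE colon, and the libraries of the groups overlapped in every one. With edgeR's quasi-likelihood test, 0 of the 10 members had an adjusted p under 0.05, where 0.0306% of all genes tested did, and 0 had an unadjusted p under 0.05, where 11.1% of all genes did. The study's own threshold combined a p under 0.05, unadjusted, with a log2 fold change beyond 0.32 in either direction. By it, 0 members were higher (8.05% of all genes) and 0 were lower (2.21%). DESeq2 also called 0 members, where it called 2.79% of the genes. In 0 of the 10 did the 3 NSD2∆IE values all lie above or all below the controls, which 18.7% of all genes did (11.4% above and 7.28% below). The members' fitted log2 fold changes were positive in 6 and negative in 4, with a median of 0.19 against -0.04 over all genes tested.

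**Figure D1:**
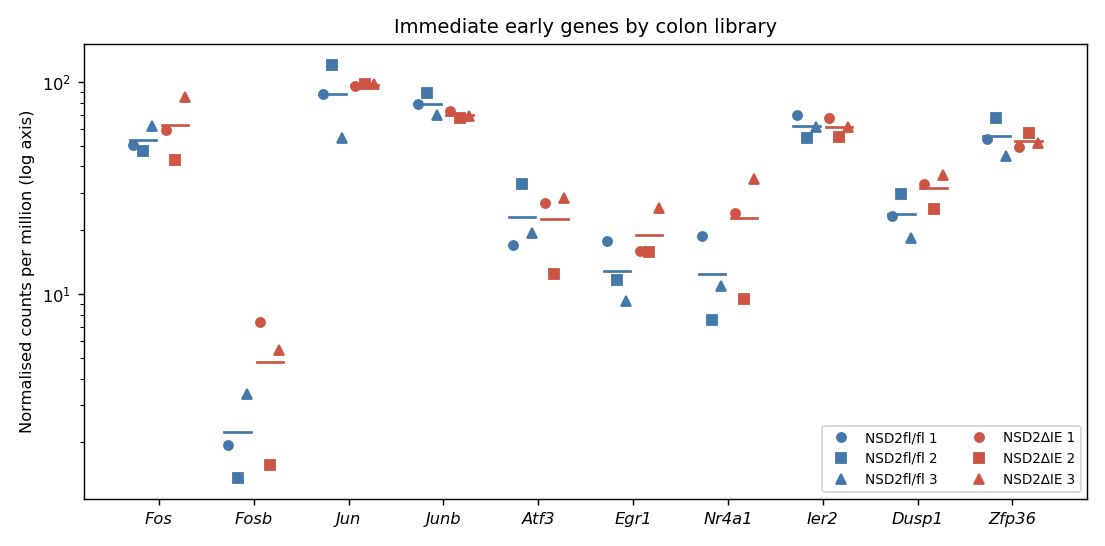
Normalised counts (CPM) of the 10 immediate early genes (y axis, log scale) in the 3 NSD2fl/fl libraries (blue) and the 3 NSD2∆IE libraries (red), with short lines at the group means. The groups overlap in every gene, most widely spread in Fosb and Nr4a1 and most closely in Ier2 and Junb.

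The AP-1 factors are dimers of FOS and JUN proteins. Fos, whose protein pairs with JUN proteins, was measured at 50.7, 47.1 and 62.3 CPM in NSD2fl/fl and at 59.7, 43.0 and 84.6 CPM in NSD2∆IE replicates 1 to 3. NSD2∆IE held both the lowest and the highest library, and the log2 fold change of 0.23 (SE 0.25) had an adjusted p of 0.767 with edgeR. Without the highest library, NSD2∆IE replicate 3, the log2 fold change turned to -0.06.

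Fosb, a relative of Fos with the lowest level of the set, was measured at 1.95, 1.36 and 3.40 CPM in NSD2fl/fl and at 7.37, 1.56 and 5.47 CPM in NSD2∆IE. NSD2∆IE replicates 1 and 3 lay above all controls, and replicate 2 lay among them. Its log2 fold change of 1.10 (SE 0.60) was the highest of the 10, and its 95% interval ran from a fold of 0.80 to 5.77 (edgeR adjusted p = 0.558). These values rest on few reads, 48 to 292 counts per library.

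Jun, the DNA-binding partner of FOS and a substrate of JNK as a protein, was measured at 87.4, 120.7 and 54.6 CPM in NSD2fl/fl and at 95.8, 97.5 and 98.1 CPM in NSD2∆IE. The controls spanned the knockout values on both sides, with an SD of 33.0 CPM against 1.20 CPM in NSD2∆IE (n = 3 each). The log2 fold change was 0.15 (SE 0.26, edgeR adjusted p = 0.852), with a 95% interval from a fold of 0.72 to 1.72. Leaving out NSD2fl/fl replicate 2 or replicate 3, the controls at either end, gave 0.45 and -0.09.

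Junb, a JUN protein that often restrains JUN, was measured at 79.1, 88.5 and 69.6 CPM in NSD2fl/fl and at 73.1, 67.5 and 68.9 CPM in NSD2∆IE. It had a narrow spread, and NSD2∆IE replicate 1 lay above NSD2fl/fl replicate 3, so the groups overlapped. The log2 fold change of -0.18 (SE 0.12) had an edgeR adjusted p of 0.624.

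Atf3, a bZIP factor of the stress response, was measured at 17.1, 33.0 and 19.3 CPM in NSD2fl/fl and at 26.97, 12.4 and 28.5 CPM in NSD2∆IE. Replicate 2 was the highest library of the controls and the lowest of the knockouts, and the means were close, at 23.1 ± 8.60 and 22.6 ± 8.88 CPM (SD, n = 3 each). Its log2 fold change of -0.03 (SE 0.38) left a 95% interval from a fold of 0.53 to 1.82, so changes within that range were not excluded.

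Egr1 and Nr4a1 are transcription factors of other families, a zinc finger protein and an orphan nuclear receptor. Egr1 was measured at 17.8, 11.6 and 9.32 CPM in NSD2fl/fl and at 15.9, 15.8 and 25.4 CPM in NSD2∆IE. Only NSD2∆IE replicate 3 lay above all controls, and NSD2fl/fl replicate 1 lay above the other two knockouts. The log2 fold change was 0.56 (SE 0.30, edgeR adjusted p = 0.555). Nr4a1 was measured at 18.7, 7.57 and 10.9 CPM in NSD2fl/fl and at 24.2, 9.44 and 35.0 CPM in NSD2∆IE. As with Fosb, NSD2∆IE replicates 1 and 3 lay above all controls and replicate 2 did not, and the log2 fold change of 0.88 (SE 0.52) had an edgeR adjusted p of 0.582.

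Ier2, a small nuclear protein induced with Fos, was measured at 69.6, 54.2 and 61.5 CPM in NSD2fl/fl and at 67.3, 55.3 and 61.5 CPM in NSD2∆IE. The 3 values of one group nearly matched those of the other, and its 95% interval of fold was narrow, from 0.80 to 1.24 (log2 fold change -0.01, SE 0.13, edgeR adjusted p = 0.985). Among all 10 members it showed the smallest ratio of highest to lowest library, 1.28.

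Dusp1 and Zfp36 act in feedback. Dusp1 was measured at 23.4, 29.6 and 18.5 CPM in NSD2fl/fl and at 33.0, 25.1 and 36.5 CPM in NSD2∆IE. NSD2∆IE replicates 1 and 3 were again above all controls and replicate 2 was not, and the log2 fold change was 0.41 (SE 0.22, edgeR adjusted p = 0.550). Zfp36 was measured at 54.0, 67.7 and 44.6 CPM in NSD2fl/fl and at 49.3, 57.6 and 51.7 CPM in NSD2∆IE. The controls spanned the knockouts on both sides, and the log2 fold change was -0.07 (SE 0.17, edgeR adjusted p = 0.898).

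**Figure D2:**
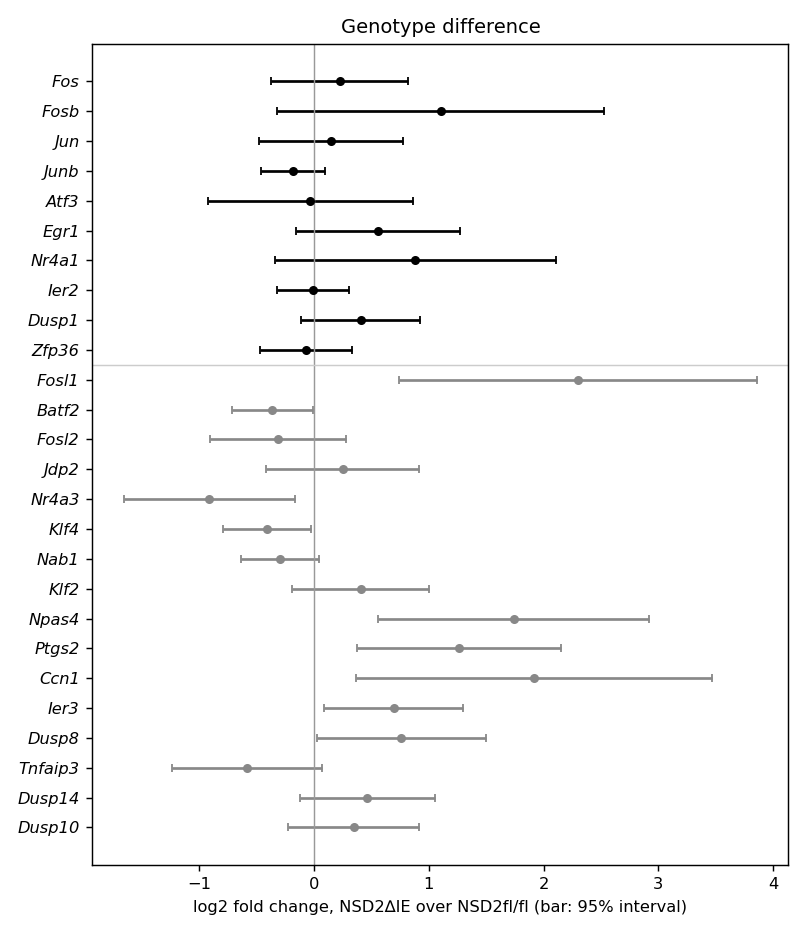
Fitted log2 fold change (x axis, NSD2∆IE over NSD2fl/fl, edgeR) with its 95% interval for the 10 members (black, upper block) and for 16 other early response and feedback genes (grey, lower block). Every member's interval includes 0, while those of Fosl1, Npas4, Ptgs2, Ccn1, Ier3, Dusp8, Batf2, Nr4a3 and Klf4 do not.

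Single libraries decided whether a member passed the threshold of the study. Without NSD2∆IE replicate 2, 2 members were higher, Fosb (log2 fold change 1.52, edgeR adjusted p = 0.805) and Nr4a1 (1.26, edgeR adjusted p = 0.805), where 4.85% of all genes were higher in that fit. The groups then no longer overlapped in 3 members, Fosb, Nr4a1 and Dusp1, as in 25.1% of all genes. Without NSD2fl/fl replicate 1, Egr1 was higher (0.86, edgeR adjusted p = 0.231, with 10.3% of all genes higher), and without NSD2fl/fl replicate 2, Dusp1 was (0.59, edgeR adjusted p = 0.338, with 9.3% of all genes higher). Other libraries lowered the same genes when left out. The log2 fold change fell to 0.66 for Fosb without NSD2∆IE replicate 1, to 0.44 for Nr4a1 and 0.29 for Egr1 without NSD2∆IE replicate 3, and to 0.26 for Dusp1 without NSD2fl/fl replicate 3. No member had an adjusted p under 0.05 in any of these fits, in which 1 group held 2 libraries.

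The spread between libraries of a group was wide for several members, though not for all. The within-group SD of log2 CPM had a median of 0.39 over the members and of 0.26 over all genes tested. Ranked among all genes tested, this SD stood at the 93.85 percentile in Fosb and the 91.7 in Nr4a1. It stood at 44.6 in Zfp36, 27.4 in Ier2 and 18.4 in Junb, below the median gene. It was larger than the difference between group means in 7 of the 10 members, all but Junb, Egr1 and Dusp1. The median difference was 0.20 over the members and 0.19 over all genes tested, below the median SD in both. How many of all genes had an SD above their difference was not counted. The ratio of the highest to the lowest of the 6 libraries was 5.43 in Fosb and 4.62 in Nr4a1, the widest, against 1.31 in Junb and 1.28 in Ier2. Counting error was small beside this: the counts alone allowed a coefficient of variation of 1.68% in Jun to 8.53% in Fosb, while the fitted biological coefficients of variation ran from 16.0% in Junb to 52.3% in Fosb.

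The members did not vary as one block. Over the 6 libraries, 31 of the 45 pairs of members had a positive Pearson r of log2 CPM and 14 a negative one, with a median of 0.34. These are descriptions over 6 libraries that share one processing and 2 genotypes. One set was Fos, Fosb and Nr4a1, with r of 0.80 for Fos and Fosb, 0.80 for Fosb and Nr4a1 and 0.78 for Fos and Nr4a1. In each of these 3 genes, and in Ier2, the 2 lowest libraries were replicate 2 of NSD2fl/fl and replicate 2 of NSD2∆IE. A second set was Jun, Zfp36 and Junb, with r of 0.83 for Jun and Zfp36, the highest of all pairs, 0.68 for Junb and Zfp36 and 0.49 for Jun and Junb. All 3 were highest in NSD2fl/fl replicate 2, where the first set was low, and Fosb and Zfp36 had the lowest r of all pairs, -0.71. With the group means taken out first, r was 0.93 for Jun and Zfp36, 0.79 for Fos and Fosb, 0.73 for Fosb and Nr4a1 and 0.93 for Jun and Junb. Some pairs outside these sets moved further: Junb and Dusp1 went from 0.10 to 0.83, and Fosb and Egr1 from 0.34 to 0.02.

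**Figure D3:**
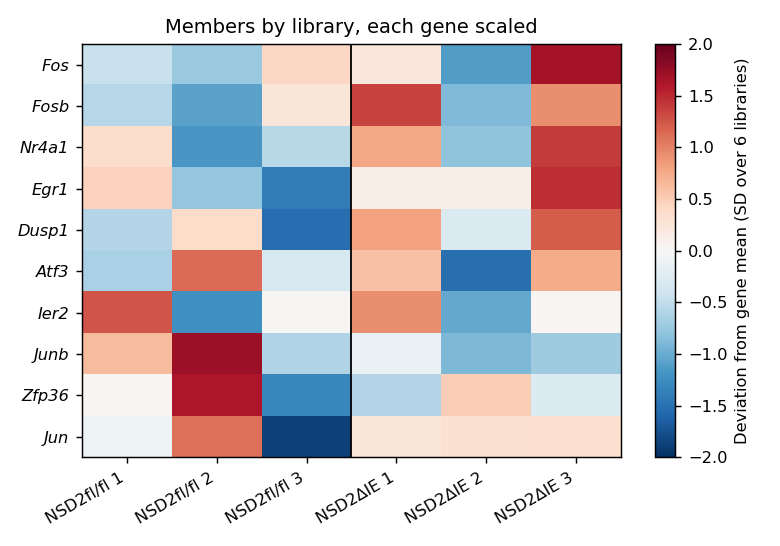
Each member's log2 CPM (rows) in the 6 libraries (columns) as its deviation from the gene's mean in SD over the 6 libraries, red above and blue below. Fos, Fosb and Nr4a1 are low in replicate 2 of both groups and high in NSD2∆IE replicate 3, while Junb, Zfp36 and Jun are highest in NSD2fl/fl replicate 2.

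The library in which the second set peaked also stood apart in its cell type markers. NSD2fl/fl replicate 2 had the highest sum of 10 epithelial markers, 22220 CPM against 12930 to 15780 in the other 5 libraries, and the lowest sum of 10 smooth muscle markers, 1680 CPM against 4425 to 11890. The first principal component of log2 CPM, 51% of the variance, put NSD2fl/fl replicate 2 and NSD2∆IE replicates 2 and 3 on one side. Jun was at or above 97.5 CPM in these 3 and at or below 95.8 CPM in the other 3, a narrow gap. No other member separated the sides, although Ier2 nearly did so in the other direction, its sides meeting at 61.5 CPM. On one side NSD2∆IE had only replicate 1, and on the other NSD2fl/fl had only replicate 2. Within the sides, Jun was higher in NSD2∆IE on one (log2 difference 0.43) and lower on the other (-0.30), as was Atf3 (0.57 and -0.69). Fosb (1.46 and 1.38), Nr4a1 (0.71 and 1.55) and Egr1 (0.23 and 0.83) were higher in NSD2∆IE on both. So were Fos (0.08 and 0.44), Dusp1 (0.66 and 0.06) and Ier2 (0.04 and 0.11). Junb was lower on both, and Zfp36 was near 0 on one and lower on the other. With the side as a covariate in edgeR, Fosb had an adjusted p of 0.328. The part of tissue makeup in the members' values was not tested.

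Levels between genes were compared in FPKM, which divides reads by gene length. Ier2 and Junb were the most abundant members, with medians over the 6 libraries of 40.7 and 40.7 FPKM, and their libraries overlapped. Zfp36 (31.3), Jun (31.2) and Fos (26.0) followed, each overlapping the next, and then came a step to Dusp1 (13.7): every library of Fos lay above every library of Dusp1. Atf3 (11.6) overlapped Dusp1, with 4 of the 6 libraries in the same order. Egr1 (5.30), Nr4a1 (2.84) and Fosb (0.68) were lowest, and Atf3 exceeded Egr1, Egr1 exceeded Nr4a1 and Nr4a1 exceeded Fosb in all 6 libraries, although the ranges overlapped. The order of the members, Egr1 and Nr4a1 among them, rests on the lengths used, and no other lengths were tried. The FPKM imply 3072 bases for Egr1 and 5123 for Nr4a1, where merged exons in GENCODE M21 hold 4484 and 3509. In the same way the lengths were 1765 and 3470 for Zfp36, 1942 and 3311 for Dusp1 and 3776 and 6243 for Fosb. For Ier2 they were equal, and for Jun nearly so (3187 and 3189). In CPM, Nr4a1 was below Egr1 in replicate 2 of both groups and above it in the other libraries. Ranked by mean FPKM over all 24517 genes listed, Ier2 stood at the 93.1 percentile and Fosb at the 49.3.

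Within their families the members were not always the main form, by shares of FPKM that rest on the same lengths. Jund, a JUN protein that is widely expressed without a stimulus, supplied 48.9% to 55.4% of the JUN family's FPKM, Junb 25.4% to 30.8% and Jun 13.96% to 22.5%. Junb's share was 29.7%, 28.6% and 30.8% in NSD2fl/fl and 25.4%, 26.5% and 25.5% in NSD2∆IE. The groups did not overlap, which was so for 1 of the 7 member shares of a family examined, where 18.7% of all genes had groups apart in CPM. This share was singled out after its values were seen and was not tested. Fos made up 36.7% to 65.3% of the FOS family and Fosl2, another FOS relative, 30.6% to 62.3%, while Fosb stayed at or below 3.43%. Egr1 accounted for 93.4% to 97.1% of the EGR family, and Nr4a1 for 42.0% to 79.4% of the NR4A family.

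**Figure D4:**
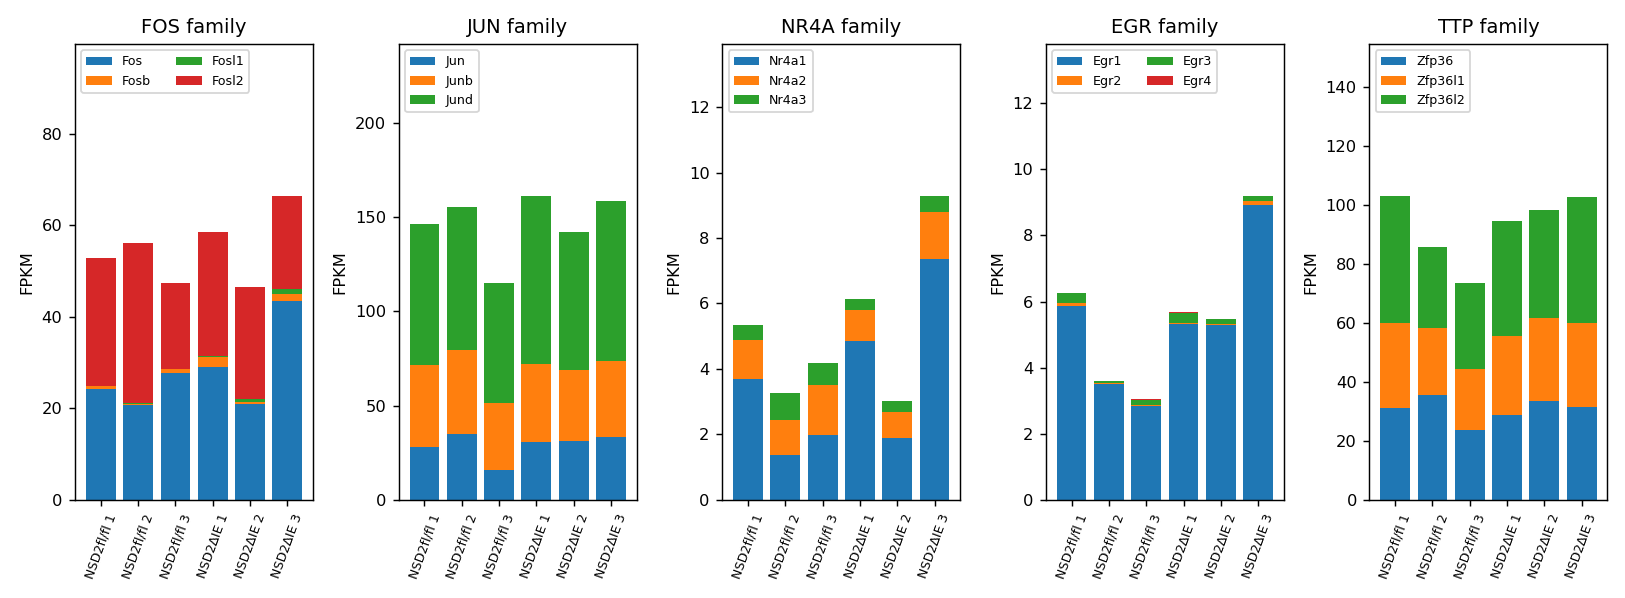
FPKM (y axis, one scale per panel) of the members and their relatives, stacked by family, in the 6 libraries (x axis). Jund is the largest part of the JUN family in each library, Egr1 is nearly all of the EGR family, and the FOS family is shared mostly between Fos and Fosl2.

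Other genes of the early response were read from lists of their own. For each list and marker set below, the counts stand beside 8.05% of all genes higher and 2.21% lower at the same threshold. Of 10 other AP-1 and related bZIP genes, 1 was higher and 1 lower at the threshold of the study. Fosl1, a FOS relative, was at 0.16, 0.45 and 0.11 CPM in NSD2fl/fl and at 0.66, 1.09 and 1.83 CPM in NSD2∆IE (log2 fold change 2.30, SE 0.65, edgeR adjusted p = 0.312). Batf2 was at 20.8 to 25.7 CPM in NSD2fl/fl and 15.7 to 20.1 CPM in NSD2∆IE (-0.36, SE 0.15, edgeR adjusted p = 0.441). Neither passed the correction over all genes, and neither pair of groups overlapped. Fosl2 (-0.32, SE 0.25) and Jdp2 (0.25, SE 0.28) did not pass.

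Of 11 other EGR, NR4A and KLF factors, 10 were tested, 0 were higher and 2 were lower. Nr4a3 was at 3.51, 6.67 and 5.64 CPM in NSD2fl/fl and at 2.498, 2.35 and 3.57 CPM in NSD2∆IE (log2 fold change -0.91, SE 0.31, edgeR adjusted p = 0.369). Its groups overlapped by NSD2∆IE replicate 3, and its fitted sign was opposite to that of Nr4a1, its relative. Klf4, a factor of differentiating epithelium, was at 447.4 to 505.3 CPM in NSD2fl/fl and at 303.3 to 420.5 CPM in NSD2∆IE (-0.41, SE 0.16, edgeR adjusted p = 0.426). Nab1, a corepressor of EGR proteins, did not pass (-0.30, SE 0.14), nor did Klf2 (0.41, SE 0.25).

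Of 26 other early response genes, 4 were higher and 0 lower. Npas4, a calcium-induced factor of neurons, was at 3.35, 1.10 and 1.85 CPM in NSD2fl/fl and at 4.69, 5.58 and 10.8 CPM in NSD2∆IE (log2 fold change 1.74, SE 0.50, edgeR adjusted p = 0.312, DESeq2 adjusted p = 0.0228). Ptgs2, the inducible cyclooxygenase, was at 1.71 to 3.58 CPM and at 5.37 to 9.71 CPM (1.26, SE 0.37, edgeR adjusted p = 0.321, DESeq2 adjusted p = 0.0499). Their groups did not overlap. Ccn1, a matricellular protein, was at 5.48 to 8.31 CPM in NSD2fl/fl and at 16.0, 9.46 and 57.3 CPM in NSD2∆IE (1.92, SE 0.65, edgeR adjusted p = 0.367, DESeq2 adjusted p = 0.0381). NSD2∆IE replicate 3 was far above the other two knockouts, of which replicate 2 lay close to the controls. Ier3 was at 5.81 to 7.40 CPM and at 8.45 to 14.2 CPM (0.70, SE 0.25, edgeR adjusted p = 0.396).

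Of 17 feedback genes, 1 was higher and 0 lower. Dusp8, a phosphatase with preference for JNK and p38, was at 10.5, 8.62 and 5.48 CPM in NSD2fl/fl and at 15.6, 9.59 and 16.6 CPM in NSD2∆IE (log2 fold change 0.76, SE 0.31, edgeR adjusted p = 0.432), and its groups overlapped by NSD2∆IE replicate 2, as those of Dusp1 did. Tnfaip3 (-0.58), Dusp14 (0.47) and Dusp10 (0.35) did not pass.

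Of 24 kinases and factors upstream, 2 were higher and 1 lower. Mapk10, the JNK gene of neurons, was at 2.12 to 3.43 CPM in NSD2fl/fl and at 5.80 to 6.94 CPM in NSD2∆IE (log2 fold change 1.19, SE 0.24, edgeR adjusted p = 0.302, DESeq2 adjusted p = 0.00186). Srf, whose protein binds the CArG box and which also serves muscle genes, was at 54.5 to 57.2 CPM and at 63.2 to 85.0 CPM (0.38, SE 0.13, edgeR adjusted p = 0.369). Egfr, a growth factor receptor, was at 40.4 to 53.0 CPM and at 35.0 to 40.6 CPM (-0.37, SE 0.14, edgeR adjusted p = 0.401). Map2k1 did not pass (-0.34, SE 0.15).

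Markers of muscle and nerve were also higher in the NSD2∆IE libraries. The 10 smooth muscle markers summed to 1680 to 4428 CPM in NSD2fl/fl and to 5527 to 11890 CPM in NSD2∆IE, and 9 of the 10 were higher at the threshold of the study. The 10 markers of the enteric nervous system summed to 61.4 to 112.4 CPM and to 142.3 to 183.2 CPM, and 10 of the 10 were higher. The epithelial markers summed to 13320 to 22220 CPM and to 12930 to 14710 CPM, with 0 of 10 past the threshold. Neither marker sum of muscle or nerve overlapped between the groups, and their part in these gene differences was not tested. Within NSD2∆IE, replicate 2 had higher sums of both than replicate 1 (7556 against 5527 CPM for muscle, 183.2 against 142.3 CPM for nerve). Ccn1 and Dusp8 were lower in replicate 2 than in replicate 1. Ptgs2 (5.37 against 5.45 CPM) and Ier3 (8.45 against 8.53 CPM) were slightly lower, while Fosl1, Npas4, Mapk10 and Srf were higher. NSD2∆IE replicate 3 had the highest muscle sum, 11890 CPM, and a nerve sum of 181.3 CPM. Of the knockouts it was also the highest in Ccn1, Dusp8, Ptgs2, Ier3, Fosl1, Npas4 and Srf, and in Mapk10 it lay just below replicate 2. The members summed to 353.9 to 461.4 CPM in NSD2fl/fl and to 385.3 to 495.7 CPM in NSD2∆IE.

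Among the other cell types whose markers were summed, 4 of 9 adipocyte markers tested were higher (127.0 to 275.9 CPM against 231.1 to 284.9 CPM), 3 of 8 fibroblast markers, 1 of 10 endothelial markers and 1 of 8 macrophage markers were higher, and 1 of 8 B and plasma cell markers was lower. None of the 7 T cell markers tested passed. Of the 6 neutrophil markers, 4 had too few reads to be tested, and the 2 tested summed to at most 5.30 CPM in any library.

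Glucocorticoids and heat shock also mark the state of an animal at death, and their genes are set beside the members for that reason. Of 10 glucocorticoid-induced genes, 2 were higher: Sgk1, a kinase that also answers to aldosterone, at 75.1 to 101.2 CPM in NSD2fl/fl and 118.8 to 162.1 CPM in NSD2∆IE (log2 fold change 0.75, SE 0.17, edgeR adjusted p = 0.302, DESeq2 adjusted p = 0.0116), and Per1, a clock gene, at 32.7 to 54.5 CPM and 49.98 to 72.4 CPM (0.62, SE 0.24, edgeR adjusted p = 0.414). Of 11 cytosolic heat shock genes, 0 passed, and they summed to 3434, 4806 and 6222 CPM in NSD2fl/fl and to 3106 to 3482 CPM in NSD2∆IE. The library with the highest heat shock sum, NSD2fl/fl replicate 3, had the lowest values of Jun, Zfp36, Egr1 and Dusp1.

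The genes most like the members were found by the correlation, over the 6 libraries, with the mean of the members' scaled log2 CPM, among 10690 genes of at least 3 log2 CPM on average. They were 1810058I24Rik (r = 0.95), Pias4 (0.94), Flt1 (0.94), Gpsm1 (0.94) and Bcl7a (0.92). Flt1, a receptor of vascular endothelium, was at 28.0, 27.8 and 23.5 CPM in NSD2fl/fl and at 31.3, 26.7 and 31.8 CPM in NSD2∆IE. None of the 5 passed the threshold of the study between the groups. The libraries share one processing, and the ranking is a description over 6 points.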

How the data were processed

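Colon RNA-seq libraries of 2 genotypes, 3 of each, were compared, grouped and numbered by the labels. Per the labels, reads were processed with fastp, HISAT2, HTSeq and R 3.2.0 on mm10. The annotation release and the use of strand in counting are not given in the sources used here. The authors deposited read counts per gene for each library, and FPKM values made from the same counts by gene length and library total. Genes on the opposite strand overlap exons of Jun (Junos, 689 bases), Junb (Prdx2, 173 bases) and Dusp1 (Ergic1, 50 bases). As whole genes, Junos had 62 to 165 counts, Prdx2 5655 to 6884 and Ergic1 4343 to 5122. Gm44710, for which no counts were listed, overlaps 1274 exon bases of Zfp36 on the opposite strand. Reads in these overlaps could not be separated without strand. No pair of libraries agreed within sampling noise.

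Deposited counts were filtered with filterByExpr, scaled by TMM and tested with edgeR 4.0.16 (quasi-likelihood, two-sided, Benjamini-Hochberg over 16347 genes) in R 4.3.3. DESeq2 1.42.0 and limma 3.58.1 gave alternatives, among them limma on log2(FPKM + 1) and log2(FPKM + 0.1). The fitting code was tested on simulated data. The members and gene lists were chosen with earlier results of these data known. The genes named were the members, Nsd2, Xist and the Y-linked genes, up to 4 genes of smallest p of each further list (markers as sums), any early response or feedback gene past the threshold, and the 5 genes most like the members. A count of 0 allows up to 3 counts, and such limits cover counting error only.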

Additional observations from a re-analysis of the deposited data

How the results depend on the processing

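The members with adjusted p under 0.05 numbered 0 and the members lower numbered 0 under every alternative run, and their median log2 fold change kept its sign (0.07 to 0.38 over all alternatives and with each library left out). The members higher at the threshold of the study were 0 in the reported fit and 1 with library totals alone (Dusp1), with log2(FPKM + 0.1) (Dusp1), with the replicate block (Nr4a1, edgeR unadjusted p = 0.0403) and with the side of the first principal component as a covariate (Fosb). They ranged from 0 to 2 with each library left out, and members whose groups did not overlap then ranged from 0 to 3, a count added after seeing the data. Over all genes tested, the share higher was 8.05% in the reported fit, 11.5% with log2(FPKM + 0.1), 10.5% when scaled by library totals, 8.94% with the replicate block, 8.98% with the side and 4.06% to 10.3% with a library left out, when 21.7% to 35.9% of genes had groups apart.

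The correlations of same-numbered deviations were 0.501 and 0.643 for replicates 1 and 2 and -0.166 for replicate 3. These values do not settle whether replicate numbers pair the libraries. With the replicate block, genes of the other lists were 13 higher (10 in the reported fit) and 9 lower (4 in the reported fit). Those lower were also 1 with library totals alone, 1 when scaled by the upper quartile, 10 without a filter on low counts, 9 with DESeq2, 0 with log2(FPKM + 1), 0 with log2(FPKM + 0.1), 1 at a fold change over 1.5, and 1 to 8 with each library left out. Over all genes tested, the share lower was 2.21% in the reported fit, 3.68% with the replicate block and 0.869% with library totals alone. It was 1.22% with the upper quartile, 2.48% without a filter and 2.64% with DESeq2. It was 0.661% with log2(FPKM + 1) and 0.844% with log2(FPKM + 0.1). At a fold change over 1.5 it was 1%, and with each library left out 0.879% to 4.48%. List genes higher ranged from 6 to 10 with each library left out. List genes with adjusted p under 0.05 were 5 with DESeq2, which called 2.79% of the genes. Nsd2 passed the correction with DESeq2 alone (log2 fold change -1.22).

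Signs near 0 turned. With upper-quartile factors the log2 fold changes were 0.058 for Ier2, 0.046 for Atf3 and 0.0018 for Zfp36. With library totals alone they were 0.11, 0.12 and 0.060, with log2(FPKM + 1) 0.12, 0.066 and 0.074, and with log2(FPKM + 0.1) 0.12, 0.066 and 0.077, each in the same order. With the principal component side Ier2 was at 0.073. The median of all genes moved from -0.04 to 0.09 with library totals alone, where these signs turned. Ier2 also turned with the side, where that median was -0.03. With each library left out, log2 fold changes ran from -0.056 to 0.44 for Fos, -0.092 to 0.45 for Jun, -0.096 to 0.083 for Ier2, -0.23 to 0.32 for Atf3, -0.20 to 0.10 for Zfp36, 0.66 to 1.54 for Fosb, 0.44 to 1.31 for Nr4a1, 0.29 to 0.86 for Egr1 and 0.26 to 0.59 for Dusp1. The cause of these changes was not tested. With 3 libraries a group, intervals of fold as wide as 0.80 to 5.77 (Fosb) remained, and the part of depth was not tested.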
